A study of Homo sapiens with 10 samples.

Results

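The miR-28, miR-151a and miR-708 miRNAs were followed by small RNA sequencing in ES-2, a human line established from an ovarian tumour. The members were taken by name (hsa-miR-28-5p, hsa-miR-28-3p, hsa-miR-151a-5p, hsa-miR-151a-3p and hsa-miR-708-5p, written without the prefix from here on), and they are 5 of the 2576 mature miRNAs in the table. Each had reads in all 10 libraries. Cells had received a pool of siRNAs against IGF2BP1 (siIGF2BP1, 2 libraries), against IGF2BP2 (siIGF2BP2, 3 libraries) or against IGF2BP3 (siIGF2BP3, 3 libraries), or a control siRNA (siC, 2 libraries). IGF2BP1, IGF2BP2 and IGF2BP3 are paralogous RNA-binding proteins that bind mRNAs and influence their stability and translation. All groups are of the same cell line, grown in the same medium with serum, and the time after transfection is not given in the sources used here. Each sample's label names its siRNA, while the treatment text mentions only the seeding of parental cells. The IGF2BP mRNAs were not analysed here, so how far each was depleted was not checked. Whether the replicates are separate cultures is not stated, and a p-value here may thus reflect technical spread alone.

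A miRNA hairpin yields a 5p and a 3p arm, and the arm loaded into Argonaute represses mRNAs that pair with its seed, the bases near its 5′ end. The miR-28, miR-151a and miR-708 hairpins arose from LINE-2 repeats, and their arms resemble each other for that reason. In the GENCODE 29 annotation, MIR28 lies in an intron of LPP, MIR151A in an intron of PTK2 and MIR708 in an intron of TENM4, each on the strand of its host gene. LPP encodes a focal adhesion protein, PTK2 encodes focal adhesion kinase, and TENM4 encodes a transmembrane teneurin. In the literature, miR-28-5p restrains growth of several tumour types, miR-151a promotes migration of liver cancer cells, and miR-708 restrains metastasis in breast and ovarian cancer models.

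Mature sequences are shown because resemblance of the arms is what joins these miRNAs, and because related arms can share reads. They were taken by name from RefSeq on GRCh38.p14, 5′ to 3′, with the seed (bases 2 to 8) in capitals. miR-28-3p is at chr3:188688834-188688855 on the plus strand, miR-708-5p at chr11:79402077-79402099 on the minus strand, and miR-708-3p, the other arm of that hairpin, at chr11:79402032-79402053 on the minus strand.
miR-28-3p: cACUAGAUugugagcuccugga
miR-708-3p: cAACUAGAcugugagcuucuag
miR-708-5p: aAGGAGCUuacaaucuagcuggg
With miR-708-3p shifted by 1 base, 17 of 21 overlapping positions of miR-28-3p and miR-708-3p were identical, with a longest shared run of 8 bases. The 1-base shift gives these arms different seeds. Sequences of miR-28-5p and of both miR-151a arms are not shown, so it was not checked which members share a seed.

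Libraries held 462724 to 1269743 miRNA reads. In the labels, siIGF2BP1 and siC share 1 source name and siIGF2BP2 and siIGF2BP3 share a different one. A principal component analysis of 313 miRNAs parted the libraries along this line on its leading axis, which held 77.1% of the variance. No group has libraries on both sides, so in siIGF2BP2 vs siC and siIGF2BP3 vs siC the siRNA and this division cannot be told apart. Only siIGF2BP1 vs siC, and siIGF2BP2 vs siIGF2BP3, compare libraries of 1 source name. Lists of miRNAs typical of several cell types were also read. The smooth muscle and fibroblast miRNAs (miR-143-3p and miR-145-5p) took 0.0569% to 0.162% of reads in siIGF2BP1, 0.00100% to 0.00121% in siIGF2BP2, 0.000368% to 0.000910% in siIGF2BP3 and 0.119% to 0.139% in siC. In the same order, blood cell miRNAs took 0.0439% to 0.0681%, 0.0440% to 0.0642%, 0.0557% to 0.163% and 0.0647% to 0.122%. Neural miRNAs took 0.0227% to 0.0449%, 0.0105% to 0.0111%, 0.0182% to 0.0194% and 0.0135% to 0.0222%. Epithelial miRNAs took at most 0.000236%, 0.00121%, 0.00108% and 0.000542%. Over the 23 miRNAs of all the cell type lists, 14 had a read in each siIGF2BP1 library, 6 to 9 in the siIGF2BP2 libraries, 7 to 11 in the siIGF2BP3 libraries and 12 and 13 in the siC libraries, and the liver miRNA miR-122-5p was at 0 throughout. Of the 4 striated muscle miRNAs among them, 3 are in the deposited data. The siIGF2BP1 libraries were also the deepest, with 1269743 and 1096008 reads against at most 815312 in the others, and detection depends on depth. Among the others the number detected did not rank by depth. siC C2 had 553288 reads and 12 of the 23, and siIGF2BP3 replicate 2 had 815312 reads and 7. The 23 together took 0.124% to 0.275% of reads in siIGF2BP1, 0.0561% to 0.0777% in siIGF2BP2, 0.0757% to 0.184% in siIGF2BP3 and 0.207% to 0.275% in siC. The part of these differences in the results was not tested. No miRNA in these lists defines ES-2 cells, so the labelled cell line was not checked by markers.

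The 5 miRNAs were a small part of the miRNA pool. Together they took 0.817% and 0.892% of reads in siIGF2BP1, 0.772%, 0.659% and 0.711% in siIGF2BP2, 0.734%, 0.769% and 0.741% in siIGF2BP3, and 0.689% and 0.616% in siC. Both siIGF2BP1 libraries had a larger share than every other library. The exact 95% intervals, which cover counting error only, were 0.802% to 0.833% for siIGF2BP1 replicate 1 and 0.598% to 0.634% for siC C3.

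By mean normalised read count over the 10 libraries, miR-151a-3p ranked 35th among all miRNAs, miR-28-3p 44th, miR-151a-5p 57th, miR-28-5p 95th and miR-708-5p 186th. This order held in each library, since the values of the 5 miRNAs did not overlap. Reads are not corrected for differences in ligation between sequences, so the order is one of reads and not of molecules. The standard deviation over libraries, on the log2 scale, was 0.18 for miR-28-5p, 0.21 for miR-28-3p, miR-151a-5p and miR-151a-3p, and 0.26 for miR-708-5p. Over the 313 miRNAs that averaged 10 or more, the median of this standard deviation was 0.39.

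The miR-28 hairpin gave both its arms at the lowest levels in siC. The 5p arm, miR-28-5p, had normalised read counts of 398 and 385 in siIGF2BP1, 358, 367 and 366 in siIGF2BP2, 361, 398 and 343 in siIGF2BP3, and 259 and 331 in siC. Every knockdown library lay above both siC libraries. Of the 889 miRNAs tested, 23.1% did so in all siIGF2BP1 libraries, 10.7% in all siIGF2BP2 libraries and 11.2% in all siIGF2BP3 libraries. Among the 313 that averaged 10 or more, these shares were 39.6%, 22.7% and 25.2%. The share that did so in all knockdown groups at once was not counted, and each comparison uses the same 2 siC libraries. The siIGF2BP3 values spanned those of siIGF2BP2, while both siIGF2BP1 values lay above those of siIGF2BP2. The 2 siC libraries differed from each other by more than any 2 libraries of a knockdown group.

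The 3p arm, miR-28-3p, had 2614 and 2190 in siIGF2BP1, 2465, 1898 and 2167 in siIGF2BP2, 2006, 2340 and 2336 in siIGF2BP3, and 1679 and 1807 in siC. Here too every knockdown library lay above both siC libraries, with siIGF2BP2 replicate 2 closest to siC. The spread within each knockdown group (SD 192 to 300) was larger than that in siC (SD 90.6).

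The miR-151a arms had their highest values in siIGF2BP1. The 5p arm, miR-151a-5p, had 1241 and 1132 in siIGF2BP1, 1065, 897 and 957 in siIGF2BP2, 880, 944 and 764 in siIGF2BP3, and 831 and 888 in siC. Both siIGF2BP1 libraries were above all 8 others, and the lowest value was that of siIGF2BP3 replicate 3.

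The 3p arm, miR-151a-3p, had 4023 and 4857 in siIGF2BP1, 3681, 3020 and 3165 in siIGF2BP2, 3490, 3677 and 3285 in siIGF2BP3, and 3475 and 2938 in siC. Both siIGF2BP1 libraries were again above all others, while siIGF2BP2, siIGF2BP3 and siC overlapped. Of the 5 members, 2 had both siIGF2BP1 values above every other library, as had 8.66% of the 889 miRNAs tested and 17.6% of the 313 with a mean of at least 10. The siIGF2BP1 libraries stood in opposite order for miR-28-3p and miR-151a-3p: replicate 1 had more miR-28-3p and replicate 2 more miR-151a-3p.

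The least abundant member, miR-708-5p, had 57.8 and 49.4 in siIGF2BP1, 48.1, 53.5 and 72.5 in siIGF2BP2, 39.9, 59.2 and 47.6 in siIGF2BP3, and 41.2 and 45.2 in siC. These values rest on 20 to 72 reads a library. The exact 95% interval of its share of reads was 0.0026% to 0.0067% in siIGF2BP3 replicate 1, which had the fewest reads, so counting error alone spans much of the range between libraries.

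**Figure D1:**
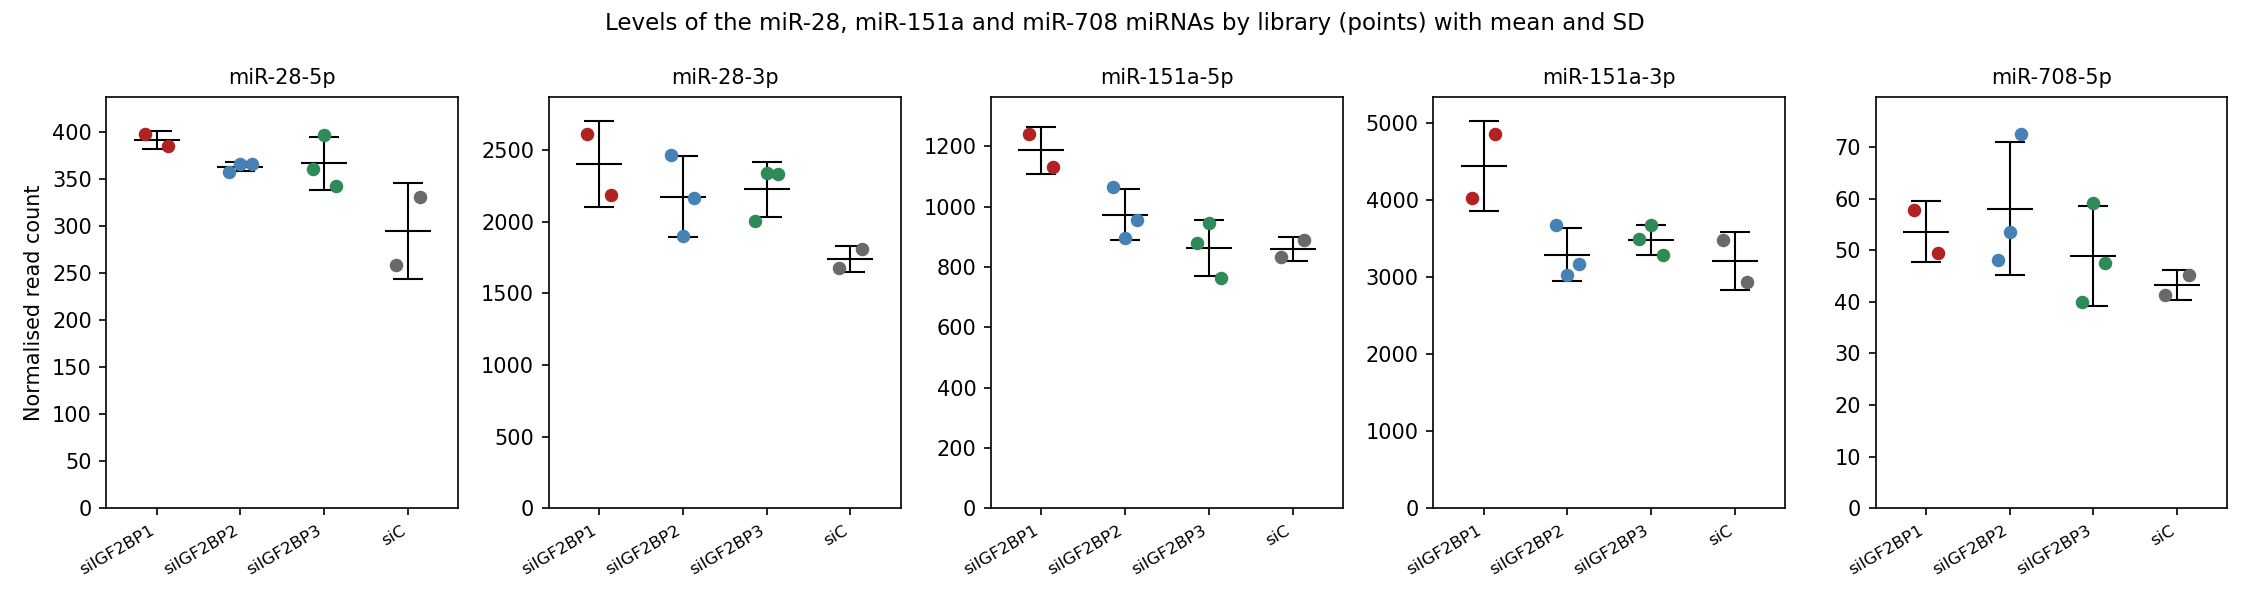
Normalised read counts (y axes, from 0) of the 5 miRNAs in siIGF2BP1, siIGF2BP2, siIGF2BP3 and siC (x axes). Each point is 1 library and bars give mean and SD. Both siIGF2BP1 libraries lie above both siC libraries in all 5 panels, and above every other library for miR-151a-5p and miR-151a-3p. Of the 889 miRNAs tested, 23.1% lay above both siC libraries in this way and 8.66% above every other library. Of the 313 with a mean of at least 10, these shares were 39.6% and 17.6%.

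The first comparison asks whether depletion of IGF2BP1 went with a difference in these miRNAs. All 5 had higher values in both siIGF2BP1 libraries than in both siC libraries, and 0 of 5 passed the test. Such higher values were found for 23.1% of the 889 miRNAs tested and 39.6% of the 313 with a mean of at least 10. The means were 392 ± 9.36 in siIGF2BP1 and 295 ± 51.2 in siC for miR-28-5p, and 2402 ± 300.1 in siIGF2BP1 and 1743 ± 90.6 in siC for miR-28-3p (SD, n = 2 each). They were 1187 ± 77.3 in siIGF2BP1 and 859 ± 39.8 in siC for miR-151a-5p, 4440 ± 590 in siIGF2BP1 and 3207 ± 380 in siC for miR-151a-3p, and 53.6 ± 5.99 in siIGF2BP1 and 43.2 ± 2.84 in siC for miR-708-5p (SD, n = 2 each). On the deposited scaling these are differences of 1.23-fold to 1.38-fold, in a comparison in which 2.47% of the 889 miRNAs tested were called.

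The log2 fold changes, fitted with limma on log2(value + 1), were 0.47 ± 0.14 (SE) for miR-151a-3p and 0.46 ± 0.14 (SE) for miR-151a-5p. They were 0.46 ± 0.15 (SE) for miR-28-3p, 0.42 ± 0.16 (SE) for miR-28-5p and 0.30 ± 0.28 (SE) for miR-708-5p. Adjusted p-values over all 889 miRNAs (limma, Benjamini-Hochberg) were 0.0971, 0.110, 0.130, 0.203 and 0.760 in that order. Unadjusted, 4 of the 5 had a p under 0.05 (limma), as had 13.7% of all tested. In a fit of only the 313 miRNAs with a mean of at least 10, 98 of the 313 had such a p. Without siC C2 the log2 fold change of miR-28-5p was 0.24, and without siIGF2BP1 replicate 1 that of miR-708-5p was 0.19. The 95% intervals reach from a fold of 1.12 to 1.70 for miR-151a-3p and from 0.813 to 1.87 for miR-708-5p. These sizes depend on scaling. Rescaled by median of ratios, the log2 fold changes were 0.23 for both miR-151a arms, 0.22 for miR-28-3p, 0.19 for miR-28-5p and 0.07 for miR-708-5p. In edgeR they were 0.21 for both miR-151a arms and miR-28-3p, 0.15 for miR-28-5p and 0.05 for miR-708-5p. Rescaled by library total they moved less, from 0.40 for miR-151a-3p to 0.23 for miR-708-5p.

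Groups that do not overlap in this direction were common: 23.1% of the 889 miRNAs, and 39.6% of the 313 with a mean of at least 10, were higher in both siIGF2BP1 libraries. The median log2 fold change was 0.46 over the 5 members, 0.10 over all tested miRNAs and 0.16 over those with a mean of at least 10, of which 28.4% lay above the members' median. Relative to the 0.16, the differences were 0.31 for both miR-151a arms, 0.30 for miR-28-3p, 0.26 for miR-28-5p and 0.14 for miR-708-5p. Where only the 313 miRNAs with a mean of at least 10 were tested, miR-151a-5p (limma adjusted p = 0.0406) and miR-151a-3p (limma adjusted p = 0.0407) passed, against 16.6% of all 313. The authors' deposited table lists log2 fold changes of 0.40 for miR-28-5p, 0.46 for miR-28-3p and miR-151a-5p, 0.47 for miR-151a-3p and 0.31 for miR-708-5p. The lowest false discovery rate among these in the authors' deposited table was 0.195, for miR-151a-5p.

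In siIGF2BP2 against siC, the order of the 5 differences depended on single libraries. The log2 fold changes were 0.31 ± 0.14 (SE) for miR-28-5p, 0.31 ± 0.13 (SE) for miR-28-3p and 0.40 ± 0.25 (SE) for miR-708-5p, against 0.18 ± 0.13 (SE) for miR-151a-5p and 0.04 ± 0.13 (SE) for miR-151a-3p. Of the 5, 0 passed the test, where 9.0% of all 889 did, and the limma adjusted p-values were 0.281, 0.231, 0.479, 0.594 and 0.944 in that order. For miR-151a-3p the interval of the fold was 0.848 to 1.24. Without siC C2 the log2 fold changes were 0.13 for miR-28-5p and 0.16 for miR-151a-3p, and without siIGF2BP2 replicate 3 that of miR-708-5p was 0.23. Without siIGF2BP2 replicate 1 that of miR-151a-5p was 0.11. Unadjusted, 1 of the 5 (miR-28-3p) had a p under 0.05 (limma), as had 17.9% of all tested. In the fit of only the 313 miRNAs with a mean of at least 10, 85 of the 313 had such a p. Values of 4 of the 5 were higher in all 3 siIGF2BP2 libraries than in both siC libraries, as were those of 10.7% of all tested miRNAs and 22.7% of those with a mean of at least 10.

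In siIGF2BP3 against siC, the miR-28 arms again lay above siC and the other 3 members overlapped with it. The log2 fold changes were 0.32 ± 0.14 (SE) for miR-28-5p and 0.35 ± 0.13 (SE) for miR-28-3p, against 0.00 ± 0.13 (SE) for miR-151a-5p, 0.12 ± 0.13 (SE) for miR-151a-3p and 0.16 ± 0.25 (SE) for miR-708-5p. Of the 5, 0 passed, where 10.6% of all 889 did, with limma adjusted p-values of 0.228 and 0.141 for miR-28-5p and miR-28-3p and 0.664 to 1 for the others. Unadjusted, 2 of the 5 (the miR-28 arms) had a p under 0.05 (limma), as had 20.8% of all tested. In the fit of only the 313 miRNAs with a mean of at least 10, 106 of the 313 had such a p. The share of miRNAs higher in every siIGF2BP3 library than in both siC libraries was 11.2% over all tested and 25.2% over those with a mean of at least 10. Means of miR-151a-5p were 863 ± 91.6 in siIGF2BP3 (SD, n = 3) and 859 ± 39.8 in siC (SD, n = 2), and the interval of the fold was 0.823 to 1.22. Without siC C2 the log2 fold changes were 0.14 for miR-28-5p and 0.24 for miR-151a-3p, which turns their order, and without siC C3 they were 0.50 and 0.0021. That of miR-708-5p was 0.012 without siIGF2BP3 replicate 2. All 3 comparisons with siC use the same 2 control libraries, so the miR-28 values of siC enter each of them.

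The calls in both of these comparisons changed under upper-quartile scaling. Rescaled by TMM, median of ratios or library total, 0 of the 5 passed in either, as on the deposited scaling. With upper-quartile scaling, 5 of the 5 passed in siIGF2BP2 vs siC and 4 of the 5 in siIGF2BP3 vs siC, as did 17.8% and 22.8% of all miRNAs. That scaling put the median of the 313 more abundant miRNAs at 0.52 and 0.67 in these comparisons, where the deposited scaling has 0.04 and 0.08. Under it 0 of the 5 passed in siIGF2BP1 vs siC (1.12% of all miRNAs) and in siIGF2BP2 vs siIGF2BP3 (1.91%). A scaling multiplies all miRNAs of a library by 1 factor, so differences relative to that median stay nearly fixed by arithmetic. They are given as sizes and are no check on scaling. Over 5 scalings, miR-28-5p stood 0.27 above that median in siIGF2BP2 vs siC and 0.24 to 0.25 above it in siIGF2BP3 vs siC. For miR-28-3p the distance was 0.27 to 0.28 in both.

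Between siIGF2BP2 and siIGF2BP3 none of the 5 miRNAs passed the test. The log2 fold changes were -0.01 ± 0.13 (SE) for miR-28-5p, -0.04 ± 0.12 (SE) for miR-28-3p, 0.18 ± 0.12 (SE) for miR-151a-5p, -0.09 ± 0.11 (SE) for miR-151a-3p and 0.24 ± 0.23 (SE) for miR-708-5p. Of the 5, 0 passed, against 3.15% of all 889 miRNAs, and 0 had an unadjusted p under 0.05 (limma), against 13.8%. In the fit of only the 313 miRNAs with a mean of at least 10, 90 of the 313 had such a p. The groups overlapped for each of the 5, whereas 7.31% of all tested miRNAs were higher and 7.99% lower in every siIGF2BP2 library. Over those with a mean of at least 10, 15.7% were higher. The intervals of the fold were 0.818 to 1.20 for miR-28-5p, 0.813 to 1.17 for miR-28-3p, 0.949 to 1.34 for miR-151a-5p, 0.795 to 1.12 for miR-151a-3p and 0.841 to 1.66 for miR-708-5p.

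The tests on recovered reads called 0 of the 5 in any of the 4 comparisons. In the order siIGF2BP1 vs siC, siIGF2BP2 vs siC, siIGF2BP3 vs siC and siIGF2BP2 vs siIGF2BP3, edgeR called 12.5%, 15.5%, 19.1% and 11.9% of its miRNAs, and DESeq2 10.4%, 10.5%, 12.6% and 14.4%. With only miRNAs of a mean of at least 10 in the limma fit, 0 of the 5 passed in the last 3 of these comparisons, against 15.7%, 20.1% and 12.8% of all 313.

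**Figure D2:**
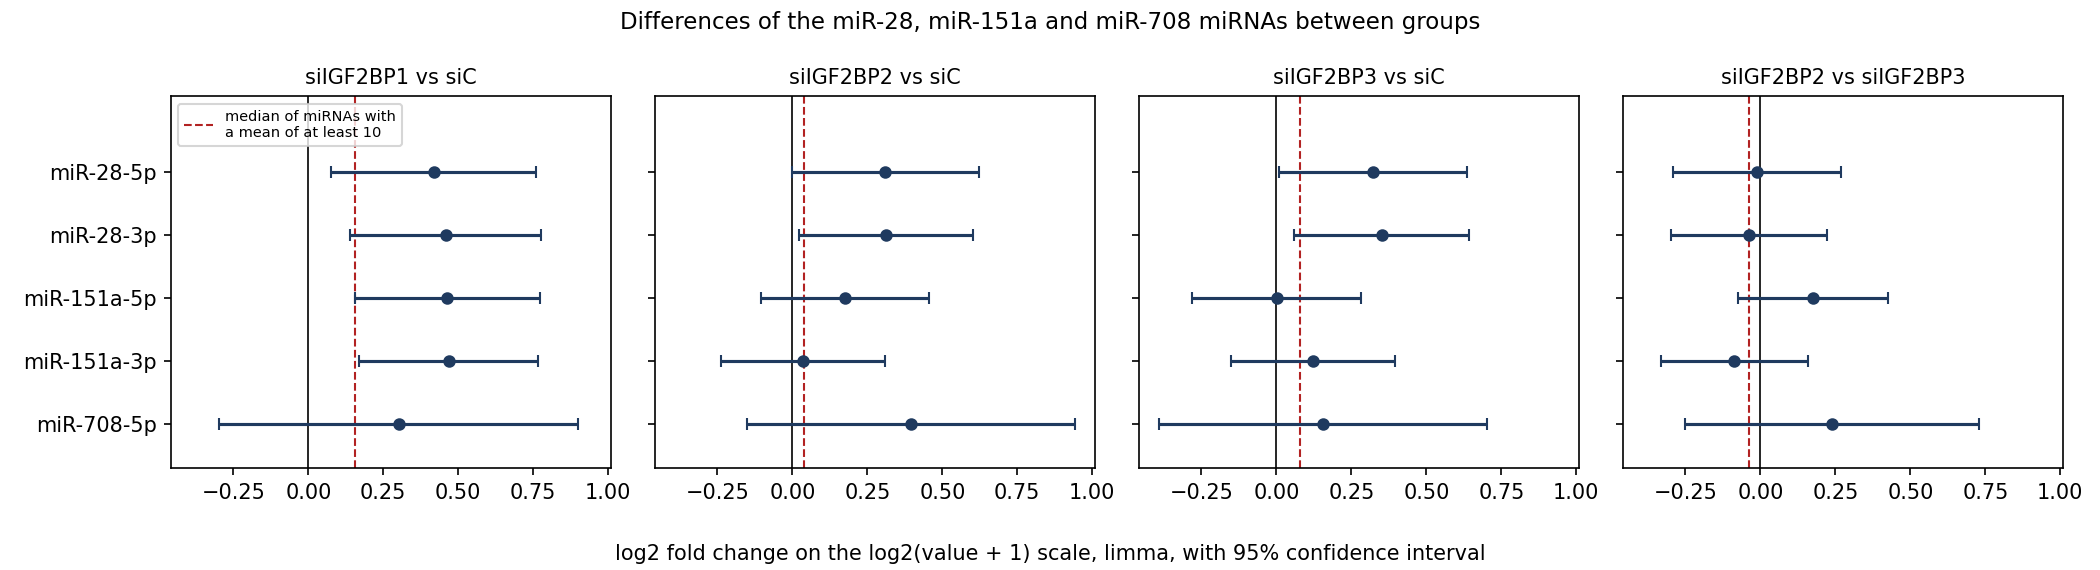
Log2 fold changes (x axes) of the 5 miRNAs (y axis) in the 4 comparisons, from limma on log2(value + 1), with 95% confidence intervals as bars. The dashed line is the median of the 313 miRNAs with a mean of at least 10, at 0.16, 0.04, 0.08 and -0.04 from left to right. In siIGF2BP1 vs siC the members lie between 0.30 and 0.47, and in siIGF2BP2 vs siIGF2BP3 between -0.09 and 0.24.

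The ratio of the 2 arms of a hairpin does not depend on how a library is scaled. For miR-28 there were 6.56 and 5.68 reads of the 3p arm per read of the 5p arm in siIGF2BP1, 6.89, 5.18 and 5.92 in siIGF2BP2, 5.55, 5.89 and 6.82 in siIGF2BP3, and 6.48 and 5.45 in siC. All groups overlapped. The differences in the log2 ratio were 0.04 for siIGF2BP1 vs siC, 0.00 for siIGF2BP2 vs siC, 0.03 for siIGF2BP3 vs siC and -0.03 for siIGF2BP2 vs siIGF2BP3, with exact permutation p-values of 0.667, 1, 0.8 and 1 (two-sided).

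For miR-151a there were 3.24 and 4.29 reads of the 3p arm per read of the 5p arm in siIGF2BP1, 3.46, 3.37 and 3.31 in siIGF2BP2, 3.97, 3.89 and 4.30 in siIGF2BP3, and 4.18 and 3.31 in siC. The siIGF2BP2 libraries lay close together and below all 3 siIGF2BP3 libraries. The log2 ratio averaged 1.76 ± 0.03 in siIGF2BP2 and 2.02 ± 0.08 in siIGF2BP3 (SD, n = 3 each), a difference of -0.26 with an exact permutation p of 0.1 (two-sided), the smallest that 3 against 3 libraries allow. Adjusted over the 8 arm ratio tests it was 0.8. Differences from siC were 0.00 for siIGF2BP1, -0.14 for siIGF2BP2 and 0.12 for siIGF2BP3, with exact permutation p-values of 1, 0.6 and 0.6, where 2 against 2 libraries cannot go below 0.333 and 3 against 2 not below 0.2.

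For miR-708 the arms were near parity and the reads few. The ratio of 5p to 3p reads was 1.36 and 1.08 in siIGF2BP1, 1.70, 1 and 1.27 in siIGF2BP2, 0.714, 1.16 and 0.519 in siIGF2BP3, and 0.893 and 1.42 in siC. The lowest ratio belongs to siIGF2BP3 replicate 3, in which miR-708-3p had 77 reads and miR-708-5p 40.

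**Figure D3:**
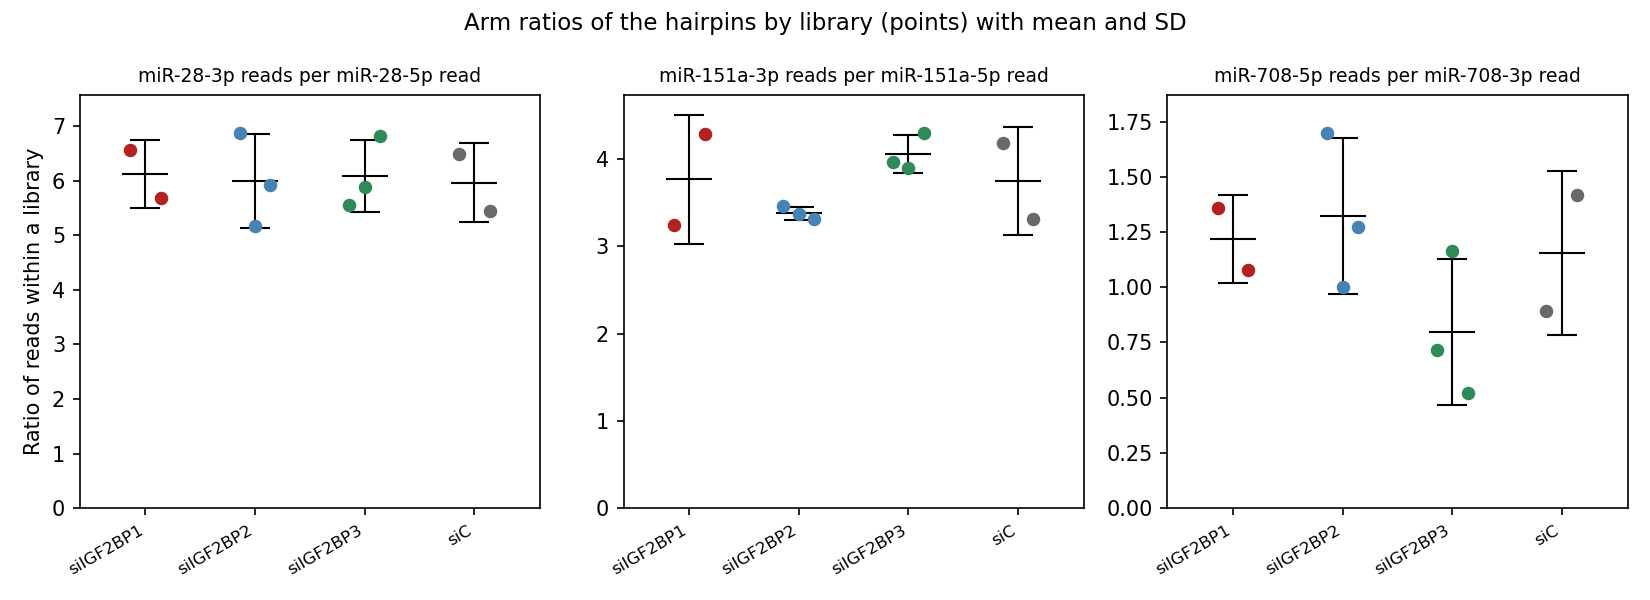
Reads of 1 arm per read of the other arm of the same hairpin (y axes, from 0) in siIGF2BP1, siIGF2BP2, siIGF2BP3 and siC (x axes). Each point is 1 library and bars give mean and SD. The miR-28 ratios lie between 5.18 and 6.89 with all groups overlapping, and the 3 siIGF2BP2 ratios of miR-151a (3.31 to 3.46) lie below the 3 of siIGF2BP3 (3.89 to 4.30).

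Relatives outside the 5 were also read. miR-708-3p had 42.6 and 45.8 in siIGF2BP1, 28.3, 53.5 and 57.0 in siIGF2BP2, 55.9, 50.9 and 91.6 in siIGF2BP3, and 46.2 and 31.9 in siC. Its log2 fold change in siIGF2BP3 vs siC, 0.72 ± 0.34 (SE), did not pass (limma adjusted p = 0.255). miR-151b, a sequence relative of miR-151a-5p, had 1 to 20 reads a library and a mean normalised read count of 12.6, against 960 for miR-151a-5p. How reads that match both were placed is not given in the sources used here, so the miR-151a-5p values may include reads of either. With miR-151b summed into miR-151a-5p, its log2 fold change was 0.46 in siIGF2BP1 vs siC, as without the sum. It was 0.16 in siIGF2BP2 vs siC (0.18 without), 0.00 in siIGF2BP3 vs siC (0.00) and 0.16 in siIGF2BP2 vs siIGF2BP3 (0.18). The gene of miR-151b lies in an intron of EVL on the opposite strand.

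Of the other LINE-2 derived miRNAs, miR-95-5p and miR-325 had 0 reads in all libraries, where 3 reads, the limit that a count of 0 allows, would be a share of 0.000236% to 0.000648% of reads. miR-95-3p had 3 and 7 reads in siIGF2BP1, 0 in each siIGF2BP2 and siIGF2BP3 library, and 1 and 7 in siC. It therefore followed the division between the source names. Taking 3 reads as the upper limit for a whole group without reads, pooled reads gave bounds of 3.61-fold lower in siIGF2BP2 and 4.24-fold lower in siIGF2BP3 than in siC. These bounds take the siC reads as exact and leave out the spread between libraries. The limma 95% interval of the fold, fitted with the pseudocount, was 0.0733 to 0.499 in each comparison. Of the 8 siC reads behind these bounds 7 were in siC C3, and without that library siC is under the same limit and gives no fold. In the authors' deposited table, the false discovery rate of miR-95-3p was 0.180 in siIGF2BP2 vs siC and 0.0725 in siIGF2BP3 vs siC. It passed the test in both (limma adjusted p = 0.0356 and 0.0302), and without siC C3 it did not (limma adjusted p = 0.188 and 0.180). Over both comparisons its adjusted p ranged from 0.00521 to 0.496 under the alternatives.

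The profiles most like each member were sought among the 313 miRNAs with a mean of at least 10, by the root mean square distance between log2 profiles over the 10 libraries, each centred on its mean. Nearest were let-7b-5p, miR-199a-3p and miR-320a for miR-28-5p (0.11, 0.11 and 0.12), and miR-22-3p, miR-320a and miR-28-5p for miR-28-3p (0.13, 0.14 and 0.14). They were miR-26a-5p, let-7e-5p and miR-125a-5p for miR-151a-5p (0.09, 0.11 and 0.13), and miR-7974, miR-92a-1-5p and miR-941 for miR-151a-3p (0.11, 0.12 and 0.13). For miR-708-5p they were miR-4326, miR-27a-3p and miR-455-5p (0.16, 0.19 and 0.19). Within the 5, the arms of 1 hairpin were the closest pairs, at 0.14 for miR-28 and 0.16 for miR-151a, and miR-151a-3p and miR-708-5p the farthest, at 0.32. These distances are a description, and libraries of different depth enter them alike.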

How the data were processed

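RNA was isolated with TRIZOL and turned into size-selected TruSeq small RNA libraries, per the labels' protocols. Tools named in the submitters' processing notes are edgeR 3.12, featureCounts 1.4.6, Bowtie2 2.2.4 and cutadapt 1.6, and the genome build is hg19. How these were set, how libraries were scaled and how reads with several placements were treated is not given in the sources used here. Library columns, as deposited, are a normalised signal. Divided by what 1 read was worth in its library (0.803 to 2.00), 100% of the values came out whole within 0.01 reads, which gave back the reads. The authors' deposited log2 fold changes and p-values or false discovery rates are quoted only where their table is named. The 2 siC columns could not be tied to single samples and are called siC C2 and siC C3. Libraries of 1 group differed by more than sampling noise in every pair (chi-square per degree of freedom 8.17 to 46.8).

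Rows of 1 mature miRNA were summed. Values were tested with limma 3.58.1 (R 4.3.3), on log2(value + 1) with an intensity trend. The 889 miRNAs that reached 1 in 2 or more libraries were kept, 1 fit held all 4 groups, and p-values were adjusted by Benjamini-Hochberg with a threshold of 0.05. The pseudocount shrinks fold changes of low miRNAs. Values are relative to the library's other miRNAs, so the amount per cell and the number of cells cannot be told apart. Recovered reads were tested with edgeR 4.0.16 (335 miRNAs) and DESeq2 1.42.0. The edgeR test called 42, 52, 64 and 40 miRNAs in the 4 comparisons in the order of the report. Exact permutation tests (two-sided, scipy 1.17.1) served for the arm ratios, and shares of reads were given with exact Clopper-Pearson 95% intervals and without the planned test. Every member is named, with the relatives and the 3 most alike miRNAs of each. Members, lists and tests were chosen with earlier results of these data known.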

Additional observations from a re-analysis of the deposited data

How the results depend on the processing

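Of the alternative fits of the 5 members' log2 fold changes, 314 kept direction and side of the threshold, 11 passed it newly and 20 changed sign, all 20 from values within 0.04 of 0. The numbers of members called (0 in each comparison) became 2 in siIGF2BP1 vs siC with a mean of at least 10, and 5 and 4 in siIGF2BP2 vs siC and siIGF2BP3 vs siC with upper-quartile rescaling. They stayed at 0 whichever library was left out (0 to 0). Rescaling moved the median of siIGF2BP1 vs siC to between -0.07 and 0.09. There, edgeR gave 0.21 for miR-151a-3p (adjusted p = 0.332).

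For miR-151a-3p in siIGF2BP2 vs siC the sign changed under TMM (-0.086), median of ratios (-0.034), edgeR (-0.027) and DESeq2 (-0.034), and leaving out libraries gave -0.085 to 0.16. For miR-151a-5p in siIGF2BP3 vs siC it changed under TMM (-0.080), median of ratios (-0.11), edgeR (-0.10) and DESeq2 (-0.10), and leaving out libraries gave -0.067 to 0.086. In siIGF2BP2 vs siIGF2BP3, miR-28-5p changed sign under median of ratios (0.026), edgeR (0.034) and DESeq2 (0.024), with -0.060 to 0.047 when libraries were left out, and miR-28-3p under edgeR (0.014) and DESeq2 (0.0064), with -0.13 to 0.057. For miR-708-3p in siIGF2BP1 vs siC the values were -0.0033 under TMM, -0.031 under median of ratios, -0.014 under upper quartile, -0.070 in edgeR and -0.050 in DESeq2, and -0.063 to 0.46 when libraries were left out. In siIGF2BP2 vs siC, leaving out libraries gave -0.061 to 0.51 for it. For miR-151b, siIGF2BP1 vs siC gave -0.074 in edgeR and -0.024 in DESeq2 (-0.27 to 0.91 when libraries were left out). Its siIGF2BP3 vs siC gave -0.0021 with a pseudocount of 5, -0.068 under TMM, -0.093 under median of ratios, -0.13 in edgeR and in DESeq2 (-0.58 to 0.60 when libraries were left out). For miR-95-3p, siIGF2BP1 vs siC ranged from -1.06 to 0.90 when libraries were left out.

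Called miRNAs in siIGF2BP1 vs siC numbered 22, and 10 with upper quartile, 52 with a mean of at least 10, 42 in edgeR, 35 in DESeq2 and 0 with only the 2 groups in the limma fit (133 with an unadjusted p under 0.05), and 2 to 15 when a library was left out (9 without siIGF2BP1 replicate 1, 2 without replicate 2, 3 without siC C2). In siIGF2BP2 vs siC they numbered 80, and 158 with upper quartile, 49 with a mean of at least 10, 52 in edgeR and 53 to 68 with 1 library fewer, the 53 being reached by omitting either replicate 2 or replicate 3 of siIGF2BP2. In siIGF2BP3 vs siC they numbered 94, and 203 with upper quartile (70 to 87 when a library was left out). In siIGF2BP2 vs siIGF2BP3 they numbered 28, and 17 with upper quartile and 15 to 21 when a library was left out (15 without siIGF2BP2 replicate 1, siIGF2BP2 replicate 3 or siIGF2BP3 replicate 2, and 16 without siIGF2BP2 replicate 2). The split of calls moved with scaling: in siIGF2BP1 vs siC it was 19 higher and 3 lower as deposited and 12 and 13 under TMM, 13 and 15 under median of ratios, 7 and 3 under upper quartile, 17 and 25 in edgeR, and 11 and 24 in DESeq2. In siIGF2BP2 vs siC it was 11 higher and 69 lower as deposited and 94 and 64 under upper quartile, and in siIGF2BP3 vs siC 17 and 77 as deposited and 137 and 66 under upper quartile. In siIGF2BP2 vs siIGF2BP3 it was 15 and 13 as deposited, 5 and 12 under upper quartile, 26 and 14 in edgeR, and 27 and 15 in DESeq2.

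With the replicate number as a block, siIGF2BP2 vs siIGF2BP3 had 1 called miRNA and 0 of the 5 members. Same-numbered libraries did not deviate together (correlations of -0.12, -0.16 and -0.04), and no library correlated best with its own number. No paired analysis was possible against siC because its columns carry no replicate number of the labels.

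Leaving out libraries moved the log2 arm ratio difference of miR-28 to between -0.087 and 0.16 in siIGF2BP1 vs siC, -0.12 and 0.13 in siIGF2BP2 vs siC, -0.10 and 0.15 in siIGF2BP3 vs siC, and -0.13 and 0.074 in siIGF2BP2 vs siIGF2BP3. For miR-151a the ranges were -0.20 to 0.21, -0.31 to 0.028, -0.046 to 0.29 and -0.29 to -0.22 in the same order. The causes were not tested. Precision is limited by 2 or 3 libraries a group and, for miR-708-5p, by 20 to 72 reads a library.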
